A study of Onthophagus taurus with 66 samples.

Results

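The transcripts described here are the 60 that were higher in both posterior regions of the dorsal head than in both anterior regions of *Onthophagus taurus*, in the average of males and females. They were drawn from the 23725 RefSeq transcripts of the deposited table. For each transcript, log2(CPM + 1) was averaged over left and right pieces and then over 11 animals in each region, where CPM is the count scaled to library size with TMM factors. The score is the lower of the LatP and MP means minus the higher of the LatA and MA means, and the 60 highest scores were kept after 17 transcripts had been taken out of the ranking. Without that step 13 of the 17 would have stood among the first 60.

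*O. taurus* is a horned dung beetle in which males grow a pair of horns from the lateral posterior head and females remain hornless. The dorsal head epithelium of pre-pupae, freed of brain, eye and muscle, was cut into lateral posterior (LatP), medial posterior (MP), lateral anterior (LatA) and medial anterior (MA) pieces, with the lateral pieces taken from the left and the right side. Each of 6 males and 5 females gave 6 pieces and each piece was 1 stranded single-end RNA-seq library, 66 in all. Every animal was untreated, so LatP is the horn-forming piece in males and the matching hornless piece in females, MP is the posterior piece between them, and LatA and MA are the anterior pieces of both sexes.

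The insect head is patterned by conserved transcription factors and by signals such as Hedgehog and insulin. In *Drosophila*, Cubitus interruptus is the transcription factor at the end of the Hedgehog pathway, and the Iroquois genes *araucan* and *caupolican* subdivide imaginal discs into territories. The insulin receptor ties the growth of exaggerated traits to nutrition in rhinoceros beetles. Chitinases and proteases act in the moult, when the old cuticle is digested as the new one is formed.

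Library totals lay between 10807956 and 17048942 counts with a median of 13246361, and the floor of detection, set at 3 counts, was 0.117 to 0.326 CPM on the TMM scale used throughout. In profiles of 500 transcripts, 61 of the 66 libraries were closest to their own region. Of the other 5, 4 anterior libraries were closest to the other anterior region, 3 of them from male 1 and 1 from female 2. The left LatA library of female 2 was closest to LatP. It correlated only weakly with the region means of the other females, at 0.092 for LatP, 0.045 for MP, −0.085 for LatA and −0.083 for MA. Leaving out female 2 kept 50 of the 60 transcripts in the list and leaving out male 1 kept 51. Transcripts named for muscle proteins in the tables of the study, 14 in number and chosen there on these libraries, summed to a median of 50.6 CPM in LatP, 717 CPM in MP, 58.5 CPM in LatA and 36.8 CPM in MA. In the same order, 6 transcripts named for photoreceptor proteins summed to a median of 27.2, 0.301, 0.294 and 0.183 CPM. The list for neurons held 1 transcript, a synaptotagmin, which over libraries was at 0 in every anterior library and had a median of 0 CPM in LatP and 2.14 CPM in MP, with 2.77 and 4.35 CPM as the highest. The list for fat body and haemocytes also held 1, a phenoloxidase, with medians of 5.89, 1.31, 1.53 and 0.664 CPM in LatP, MP, LatA and MA, and it was highest in LatP of female 5 and in MP of female 3. None of the 60 is in any of these lists.

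By construction the 60 stood higher in the posterior head, and these values carry no test. The score was 2.37 for the first transcript, 1.32 at the median and 1.13 for the last, against a median of −0.14 over 15229 expressed transcripts. As a fold on the log2(CPM + 1) scale, the smallest of the 4 posterior to anterior ratios was 5.17 for the first, 2.50 at the median and 2.18 for the last. The transcripts at ranks 56 to 60 scored between 1.149 and 1.125, and the 5 just outside the list scored between 1.117 and 1.071. Of those 5, XM_023046756.1 is named for delta-sarcoglycan. At the level of libraries, the median over the 60 was 2.92 to 4.41 in LatP and 3.10 to 4.68 in MP, against 1.13 to 2.64 in LatA and 1.07 to 2.52 in MA on the log2(CPM + 1) scale. The ranges of the posterior and anterior libraries therefore did not overlap for the median, although they did for most single transcripts. In bulk tissue, a lower level cannot be told apart as fewer cells of a type or as less RNA per cell.

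**Figure D1:**
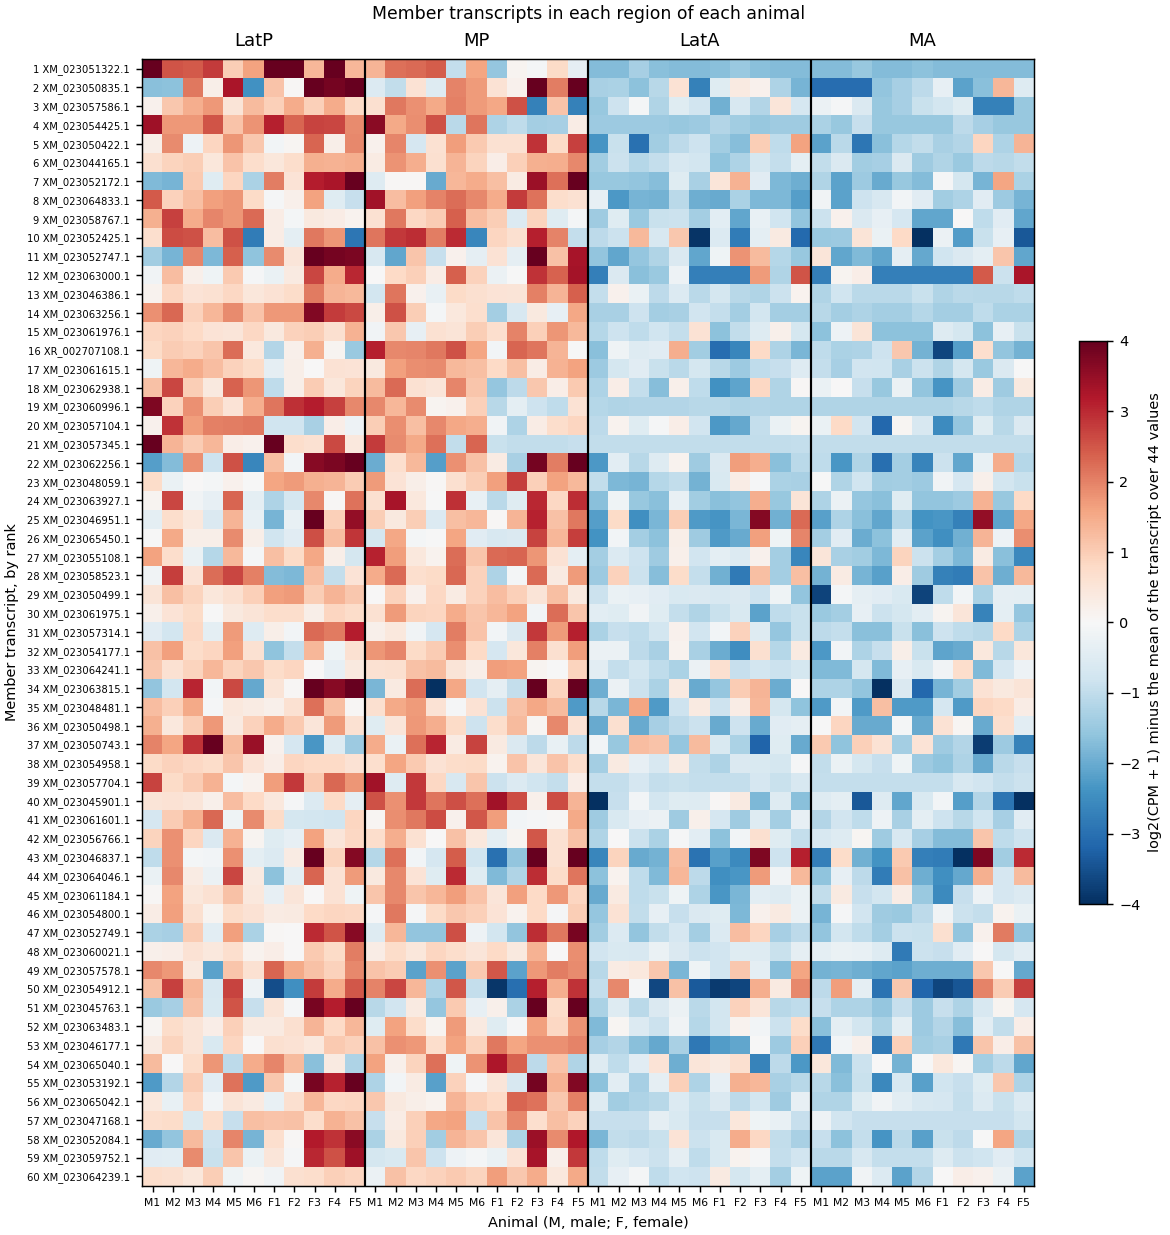
Heat map of the 60 transcripts (rows, by rank) in each region of each animal (columns, LatP, MP, LatA and MA, with males M1 to M6 left of females F1 to F5). Colour is log2(CPM + 1) minus the mean of the transcript over its 44 values. Most rows are red in LatP and MP and blue in LatA and MA, while several rows are red mainly in F3 and F5.

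The order of the regions was counted within animals. In 22 of the 60, both posterior values were above both anterior values in all 11 animals, a pattern found in 0.368% of the expressed transcripts. The rule used the same contrast, so nothing is read from that difference. Another 13 kept the order in 10 animals and 25 in 9 or fewer, with 5 animals as the fewest. In 2 of the 60, all 22 posterior values were above all 22 anterior values, against 0.0657% of expressed transcripts. These are the *araucan*/*caupolican* transcript and a *dachshund* transcript. Of the 60, 41 had the higher posterior mean in MP and 19 had it in LatP.

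Names were scarce. The tables of the study name 28 of the 60, 1 is a noncoding RNA, and 31 have no name in the sources used. Through RefSeq, 53 were matched to 48 genes and 7 were not matched, and 5 genes had a pair of transcripts in the list. Of the classes by product name, proteases and signalling proteins had 3 members each, and transcription factors had 1.

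Transcription regulators were also grouped by hand, beyond the classes by product name. This grouping was made after the values were seen, and it holds 10 transcripts of 7 genes. They are *cubitus interruptus*, *araucan*/*caupolican*, *sister of odd and bowl*, *tiptop*, *dachshund*, *hairy* and a T-box transcript named for *optomotor-blind*. All 7 were higher in the posterior head, as the rule requires, and 5 of the 10 transcripts kept the order in all 11 animals. Their range between animals in LatP ran between 0.87 and 4.43 on the log2 scale, the widest being that of the *cubitus interruptus* transcript XM_023057578.1. The median range was 1.32, against 3.66 for the other 50, and this difference was not tested.

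The transcript of *araucan*/*caupolican* (XM_023044165.1), homeobox genes of the Iroquois complex, ranked sixth. It had 15.9 to 32.7 CPM in LatP with a median of 21.7 and 13.6 to 45.7 CPM in MP with a median of 30.1. In LatA it had 2.96 to 8.30 CPM with a median of 5.33 and in MA 3.37 to 7.27 CPM with a median of 4.69. Each posterior value was thus above each anterior one, and 87.4% of its variance lay between regions.

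*dachshund* encodes a nuclear cofactor that patterns legs and eyes in *Drosophila*. Its transcript XM_023050499.1 had 16.9 to 40.9 CPM in LatP and 12.2 to 29.7 CPM in MP, against 3.33 to 10.4 CPM in LatA and 0 to 11.3 CPM in MA. The medians were 24.4 and 22.01 CPM in LatP and MP, and 7.68 and 8.49 CPM in LatA and MA. The groups did not overlap, and the sum over the transcripts of the gene kept the order in 11 animals.

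*hairy*, a pair-rule repressor in *Drosophila*, had 10.5 to 19.9 CPM in LatP and 9.67 to 27.7 CPM in MP (XM_023054958.1). Its anterior values were 2.75 to 11.5 CPM in LatA and 1.38 to 7.51 CPM in MA. It had the smallest range between animals in LatP among the 10 regulator transcripts, 0.87 on the log2 scale, and kept the order in all animals.

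*cubitus interruptus* was represented by isoforms between which reads were divided. XM_023057586.1 had a median of 12.6 CPM in LatP and 17.7 CPM in MP, but 0 CPM was listed for some MP pieces, and it kept the order in 9 animals. Summed over the 3 transcripts of the gene, LatP had 25.9 to 46.2 CPM and MP 25.2 to 50.6 CPM, against 3.42 to 18.7 CPM in LatA and 2.96 to 8.23 CPM in MA. The gene sum kept the order in 11 animals, which its isoforms XM_023057586.1 and XM_023057578.1, with 9 and 7 animals, did not.

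*tiptop* is a zinc finger gene of the teashirt family. XM_023061976.1 kept the order in 10 animals and XM_023061975.1 in 11, with medians of 4.51 and 8.47 CPM in LatP, 4.95 and 12.9 CPM in MP, 0.735 and 2.49 CPM in LatA, and 0.663 and 2.90 CPM in MA. The *tiptop* gene sum kept it in 11.

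*sister of odd and bowl* (XM_023046386.1), a zinc finger gene of the odd-skipped family, was the 13th by score. It had a median of 2.77 CPM in LatP and 2.58 CPM in MP, against 0.274 CPM in LatA and 0.0800 CPM in MA, and kept the order in 11 animals. Its gene stands 3 genes away from that of a transcript which had been taken out of the ranking.

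**Figure D2:**
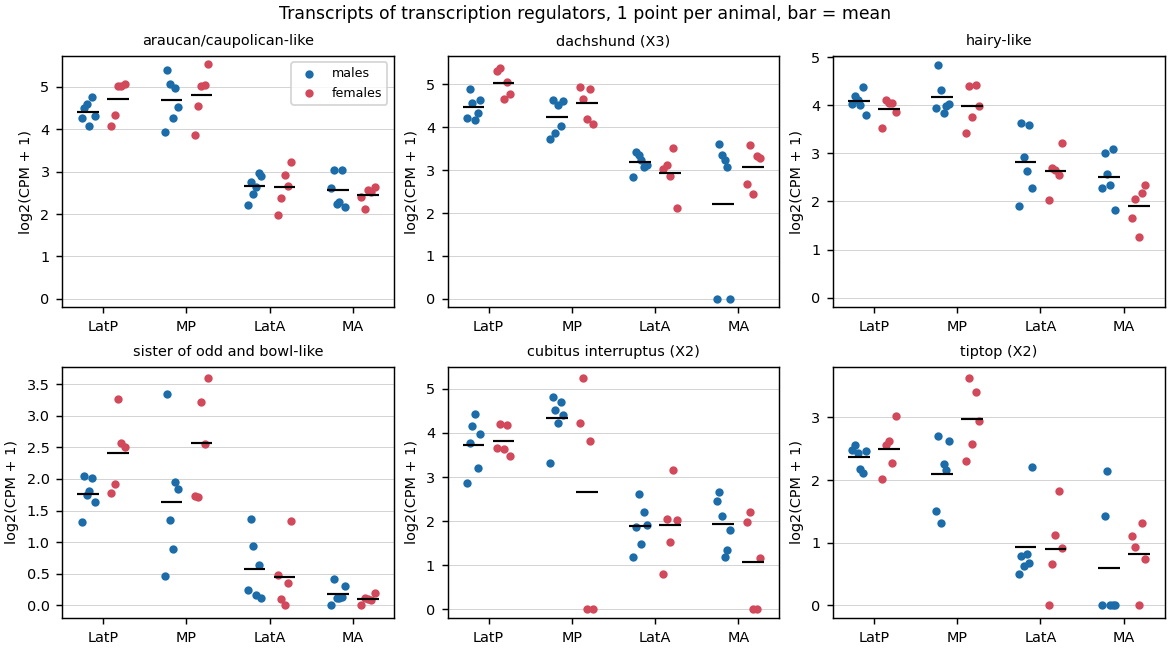
Levels of 6 transcripts of transcription regulators as log2(CPM + 1) in LatP, MP, LatA and MA, with 1 point for each animal (males left of females) and a bar at the mean. Posterior points of *araucan*/*caupolican* and *dachshund* lie above all their anterior points, and *cubitus interruptus* X2 has points at 0 in MP of 2 females.

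Proteases and other enzymes were a further group. Rank 1 was XM_023051322.1, a zinc metalloproteinase of the astacin family, which holds enzymes that cleave extracellular proteins. It had 5.67 to 60.3 CPM in LatP with a median of 18.1 and 0.150 to 16.8 CPM in MP with a median of 4.66. In LatA it reached at most 0.326 CPM and in MA 0.172 CPM, with medians of 0 in both. The transcript was thus at or near the floor of detection in the anterior head of every animal and kept the order in 11 animals. In female 1 the MP value of 0.150 CPM was itself under the floor of its library, 0.225 CPM.

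XM_023050422.1, named for a venom serine protease, had a median of 100.3 CPM in LatP and 94.8 CPM in MP, against 26.4 CPM in LatA and 23.7 CPM in MA. It kept the order in 11 animals, although its values in females 3 and 5 were several times those of the other females in all regions. An endochitinase (XM_023046951.1), an enzyme that digests the chitin of the old cuticle, had 2.72 to 260.6 CPM in LatP and 8.29 to 114.8 CPM in MP, against 1.497 to 173.8 CPM in LatA and 1.10 to 153.3 CPM in MA. For the chitinase, 64.7% of the variance lay between animals and 23.6% between regions, and the order held in 8 animals.

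Further named transcripts were nearly confined to the posterior libraries. A chymotrypsin-like transcript (XM_023057345.1) and a thaumatin-like transcript (XM_023060996.1) never exceeded 3 counts in an anterior library. The thaumatin-like transcript had a median of 7.88 CPM in LatP and 1.61 CPM in MP, and the chymotrypsin-like transcript 3.05 CPM and 0.0750 CPM. An esterase of the carboxylesterase family, enzymes that hydrolyse ester bonds, had a median of 8.10 CPM in LatP and 2.39 CPM in MP, against 0.0419 CPM in LatA and 0.0643 CPM in MA (XM_023063256.1). XM_023054425.1, named for a nucleosome assembly protein and marked in the study as restricted to its taxon, had 5.35 to 29.0 CPM in LatP and 0.119 to 33.7 CPM in MP, with at most 0.286 CPM in LatA and 0.517 CPM in MA.

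Receptors and kinases were fewer. A transcript of the insulin-like receptor (XM_023058767.1), the receptor of insulin-like peptides, had a median of 10.4 CPM in LatP and 6.86 CPM in MP, against 1.25 CPM in LatA and 1.63 CPM in MA. A G-protein coupled receptor of the methuselah family (XM_023062938.1) had medians of 11.3 and 11.9 CPM in LatP and MP, and 2.11 and 2.32 CPM in LatA and MA, and kept the order in 11 animals. A leucine-rich repeat transcript (XM_023063815.1) spread from 2.78 to 492.2 CPM in LatP and kept the order in only 6.

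Other high-ranking transcripts have no name in the sources used or are named only as uncharacterized. XM_023050835.1, second by score, had 0.533 to 165.4 CPM in LatP and 3.22 to 181.1 CPM in MP, against 0.272 to 11.4 CPM in LatA and 0 to 19.8 CPM in MA, and kept the order in 7 animals. XM_023052172.1, the seventh, kept it in 7 animals, with a median of 6.93 CPM in LatP and 9.22 CPM in MP and of 0.524 and 0.603 CPM in LatA and MA. XM_023064833.1, the eighth, is uncharacterized. It is marked in 1 table of the study as putatively restricted to its taxon and in another as not restricted. It kept the order in 11 animals, with medians of 13.6 CPM in LatP and 28.3 CPM in MP, against 1.10 CPM in LatA and 3.36 CPM in MA. XM_023052425.1, the tenth, also kept it in 11, with medians of 228.1 and 407.8 CPM, against 62.4 and 51.96 CPM. XM_023052747.1, the 11th, kept it in 7, with medians of 14.8 and 3.81 CPM in LatP and MP. The uncharacterized XM_023057314.1 kept it in 9, with medians of 4.06 and 4.74 CPM in LatP and MP. Among the 12 of highest score, the number of animals that kept the order thus ran from 7 to 11.

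The rest of the named transcripts, chosen here after their values were seen, were lower in rank. XM_023047168.1, the T-box transcript, had a median of 2.18 CPM in LatP and 2.69 CPM in MP, against 0 CPM in LatA and MA, and kept the order in 8 animals. XM_023061615.1, of the ferlin family, had 1.77 to 9.06 CPM in LatP and 3.40 to 12.3 CPM in MP, against 0.298 to 1.59 CPM in LatA and 0.277 to 2.51 CPM in MA, and kept it in 11. XM_023065042.1, named for a glycine-rich RNA-binding protein and marked as restricted to its taxon, also kept it in 11, with medians of 4.41 and 6.99 CPM in LatP and MP and of 1.045 and 1.44 CPM in LatA and MA. These posterior medians were all above their anterior medians, as the rule requires of the means.

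The transcript XM_023059752.1 is matched to *arc*, a gene of wing and eye development in *Drosophila* that encodes a protein of cell junctions. *arc* had 0.131 to 21.0 CPM in LatP and 0.191 to 19.5 CPM in MP, against 0.0395 to 1.32 CPM in LatA and 0 to 0.514 CPM in MA. It was highest in LatP of female 5 and kept the order in 8 animals. XM_023054177.1, which has no name, kept the order in 11 animals, with medians of 1334 and 1621 CPM in LatP and MP, against 387.4 and 420.7 CPM in LatA and MA.

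Because reads are divided between isoforms, the scores of 24 transcripts were recomputed from sums over their genes. The gene score was above 1 for 17 and under 0.5 for 4. XM_023063000.1, the 12th by score, had a gene score of −0.37, and its gene kept the order in 0 animals. For XM_023045901.1, named for a nucleoporin, the gene score was −0.70 and the order held in 2 animals. A level raised in both posterior regions was therefore a property of the isoform estimate and not of either gene sum. The gene sum of XM_023045901.1 was still higher in MP at the median. It had medians of 36.07 CPM in LatP and 133 CPM in MP, against 36.23 CPM in LatA and 60.56 CPM in MA.

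Variation between animals was large. For the 60, a median of 48.8% of the variance over 44 values lay between regions and 30.4% between animals, against 8.23% and 44.04% for all expressed transcripts, a description that follows the rule. In 37 of the 60 the regions held more variance than the animals and in 23 they held less. In 24 of them the LatP or MP values spanned more than 16-fold between animals, and 3 of these 24 kept the order in all animals, against 19 of the other 36. LatP was highest in female 3 or female 5 for 25 of the 60. The fat body and haemocyte transcript was also highest in female 5 in LatP, and its part in these values was not tested. Per animal, the median over the 60 of the gap between the lower posterior and the higher anterior value was 0.65 in female 2, the smallest, and 1.39 in male 3, the largest, and it was above 0 for 43 to 55 transcripts.

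**Figure D3:**
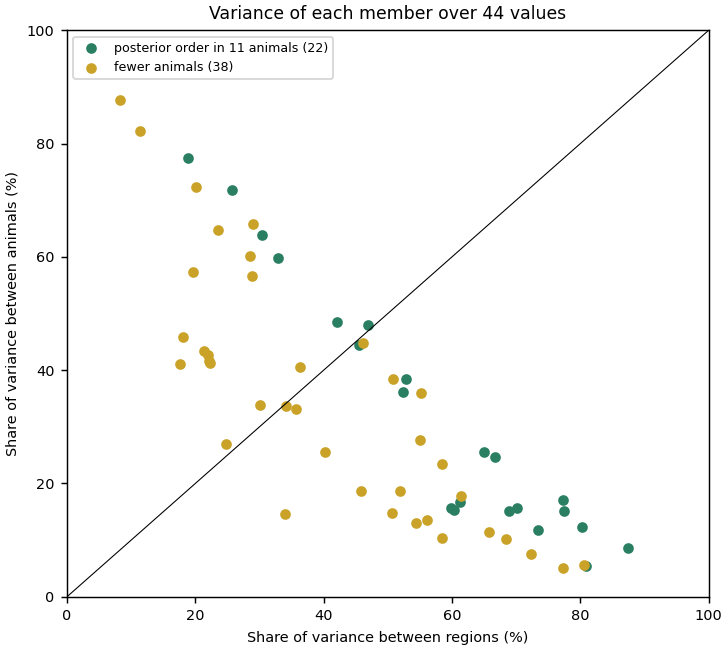
Share of the variance of each of the 60 transcripts that lies between animals (vertical, %) against the share between regions (horizontal, %), over 44 values each. The 37 points below the diagonal vary more between regions, and green points mark the 22 transcripts whose posterior values are above the anterior ones in all animals.

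LatP was compared with MP, which asks whether transcripts shared by the posterior regions differ between the horn-bearing side and the midline. The rule took the lower of the LatP and MP means, which disfavours transcripts high in a single posterior region. The counts below are thus shaped by the choice, and nothing is read from their difference from the shares of all transcripts. In males LatP was higher for 0 of the 60 and MP for 3 at an adjusted p under 0.05 in edgeR, against 3.84% and 1.82% of all transcripts tested. At an unadjusted p under 0.05 there were 7 in males, and DESeq2 called 0 and 4. Here and below, counts at an unadjusted p were taken for the listed transcripts only. They have no share of all transcripts beside them, and nothing is read from them. In females LatP was higher for 5 and MP for 3, against 2.66% and 0.783%. The median log2FC of the 60 was −0.22 in males and −0.12 in females, against −0.01 and 0.02 for all transcripts. In this comparison the 14 muscle transcripts summed to a median of 46.0 CPM in LatP and 414.6 CPM in MP of males, and to 203.4 and 717.2 CPM in females. Over animals, the neuron transcript had medians of 0.313 CPM in LatP and 1.12 CPM in MP of males, and 0.326 and 3.27 CPM in females, and the fat body and haemocyte transcript 7.59 and 3.01 CPM in males and 17.3 and 0.458 CPM in females. The part of these markers in the results was not tested.

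XM_023045901.1, the nucleoporin-named transcript, was called in both sexes. In males it had 18.4, 23.4 and 38.2 CPM in LatP and 59.1, 86.2 and 117.2 CPM in MP (lowest, median and highest of 6), with a log2FC of −1.76 (SE 0.343, adjusted p = 0.00355 in edgeR). In females 1 to 5 it had 21.7, 15.3, 10.4, 28.4 and 12.04 CPM in LatP, against 172.8, 101.6, 18.5, 101.7 and 42.5 CPM in MP, with a log2FC of −2.29 (SE 0.5, adjusted p = 0.0199). Each animal was lower in LatP, and the groups overlapped in females only. The call in males held whichever animal was left out, and the call in females was lost without female 1, 2, 4 or 5.

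The noncoding RNA XR_002707108.1 was also lower in LatP of males. It had 83.5, 122.8 and 293.6 CPM in LatP (lowest, median and highest of 6), against 188.4, 258.9 and 546.4 CPM in MP, with a log2FC of −1.10 (SE 0.277, adjusted p = 0.0226). The *tiptop* transcript XM_023061975.1 had 5.40, 7.79 and 9.88 CPM in LatP of males and 8.84, 11.8 and 19.8 CPM in MP, with a log2FC of −0.79 (SE 0.228, adjusted p = 0.0483). The call of XR_002707108.1 was lost without male 1, 2, 3 or 4 and that of the *tiptop* transcript without male 1, 2, 5 or 6. Of the 10 regulator transcripts this was the 1 called in males, and 0 were called in females, where 15 of the 60 had an unadjusted p under 0.05. With the animal as replicate block the *dachshund* transcript XM_023050499.1 was called higher in LatP of females (log2FC 0.51, SE 0.106, adjusted p = 0.00777), and also with left and right pieces added together (adjusted p = 0.0447).

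The other calls higher in MP of females were unnamed transcripts. XM_023046177.1 had 10.2, 9.93, 8.79, 14 and 12.8 CPM in LatP of females 1 to 5, against 30.7, 20.6, 24.8, 24.9 and 27.8 CPM in MP, with a log2FC of −1.19 (SE 0.223, adjusted p = 0.0079). XM_023061184.1 had 14.2, 25.3, 18.1, 27.2 and 15.7 CPM in LatP, against 25.3, 57.6, 31.7, 61.6 and 33.5 CPM in MP, with a log2FC of −1.05 (SE 0.243, adjusted p = 0.0291). Every female was lower in LatP for both, and only the values of XM_023061184.1 overlapped between the regions. Its call was lost without female 2, 3, 4 or 5, and that of XM_023046177.1 without female 3.

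In females, transcripts near the floor in the anterior head were also low in MP. The metalloproteinase XM_023051322.1 had 53.7, 60.3, 7.36, 52.9 and 7.40 CPM in LatP of females 1 to 5, against 0.150, 2.61, 2.15, 4.66 and 1.60 CPM in MP (log2FC 4.05, SE 0.881, adjusted p = 0.0198). XM_023054425.1, named for a nucleosome assembly protein, had 23.96, 13.6, 17.8, 17.3 and 9.60 CPM in LatP, against 0.225, 0.435, 0.119, 0.150 and 2.49 CPM in MP (log2FC 4.55, SE 0.794, adjusted p = 0.00504). Every female was higher in LatP and the values of LatP and MP did not overlap for either transcript. The call of XM_023051322.1 was lost without female 1, 2 or 4, and with sides added and the animal as replicate block (adjusted p = 0.0641), while that of XM_023054425.1 held in all 10 alternatives.

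The thaumatin-like XM_023060996.1 had 9.34, 16.7, 19.7, 14.6 and 7.88 CPM in LatP of females, against 0.0750, 0.762, 0.298, 0.150 and 2.43 CPM in MP, with a log2FC of 4.17 (SE 0.747, adjusted p = 0.0058). The uncharacterized XM_023057704.1 had 5.15, 12.7, 2.99, 8.55 and 5.67 CPM in LatP, against 0.0750, 0.326, 0.115, 0 and 1.34 CPM in MP, with a log2FC of 4.16 (SE 0.938, adjusted p = 0.0239). The chymotrypsin-like XM_023057345.1 had 41.2, 2.22, 2.06, 11.4 and 1.65 CPM in LatP of females and at most 1 count in any MP library (adjusted p = 0.0164). The highest floor of any library was the level of 3 counts in the MP library of female 2. The LatP mean of 11.7 CPM was 35.9-fold that floor, a value set largely by female 1, while the LatP median was 2.22 CPM. Without female 2 or female 4, 1 of the 5 was called, and without female 1, 3 were. These 5 transcripts were present in MP of males, with medians of 11.7, 10.6, 4.17, 2.84 and 7.22 CPM for XM_023051322.1, XM_023054425.1, XM_023060996.1, XM_023057704.1 and XM_023057345.1 and ranges that overlapped those of LatP. The rule used the MP mean over both sexes. A transcript with a median near 0 in MP of females could therefore enter the list only through males. For such transcripts the level in MP of males follows from the choice and is not a finding.

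Whether the LatP to MP change differed between the sexes was tested in a fit that was added after these values were seen. For transcripts near 0 in MP of females the test is not independent of the choice, which drew on MP of males. No conclusion on the sexes is drawn from it for them. At an adjusted p under 0.05, 1 of the 60 was called, with the larger change in females, against 0.0135% of the transcripts tested, and 0 with the larger change in males, against 0.142%, while 10 had an unadjusted p under 0.05 and DESeq2 called 4 and 3. The call was XM_023057345.1 (adjusted p = 0.0454), and it was lost without most single animals. For the other 4 transcripts a difference between the sexes did not pass the test. With sides as separate replicates and the same block, 3 of these 4 were called, namely XM_023054425.1 (adjusted p = 0.00675), XM_023060996.1 (adjusted p = 0.0146) and XM_023057704.1 (adjusted p = 0.0244).

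**Figure D4:**
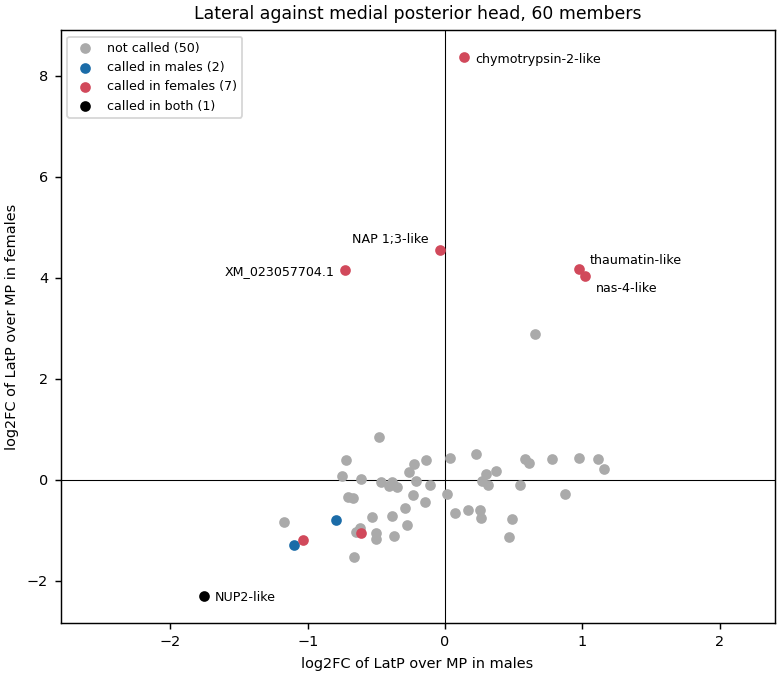
log2FC of LatP over MP for the 60 transcripts in males (horizontal) and females (vertical), with called transcripts coloured. The 5 transcripts called higher in LatP of females have log2FC above 4 on the vertical axis, and XM_023045901.1 is low on both axes. The log2FC of the chymotrypsin-like transcript is set by an MP level at or near 0.

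Pieces of 1 animal form pairs, and with the animal as replicate block more of the 60 were called. In males 2 were higher in LatP and 12 in MP, and in females 7 and 16. Of those higher in MP, 11 were called in both sexes, which is 11 of 12 in males and 11 of 16 in females. They include XR_002707108.1, XM_023045901.1, XM_023064833.1, XM_023052425.1 and XM_023061615.1, a transcript of the ferlin family, whose members act in membrane fusion. With left and right pieces added together and the same block, 1 and 11 were called in males and 5 and 11 in females, with 8 of the MP calls shared between the sexes. XM_023052425.1 was then called in neither sex. The 5 higher in LatP of females then included the *dachshund* transcript XM_023050499.1 and not XM_023051322.1. Those called higher in LatP of males and of females had 0 in common in either fit. The shares of all transcripts called in these block fits are not given here. Nothing is therefore read from the counts or from the calls shared between the sexes.

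LatA and MA were compared in the same way. Of 52 tested in males and 53 in females, 0 were called in either direction in edgeR, with 1 and 2 at an unadjusted p under 0.05, and DESeq2 called 1 in males and 0 in females. Over all transcripts 0 were called in males and 0.0298% were called higher in LatA of females. The rule used the higher of the LatA and MA means, and the counts are near these shares. Nothing about the 60 is therefore read from this comparison. Left and right LatP, a comparison within animals, likewise gave 0 calls in either sex among the 60, with 5 and 1 at an unadjusted p under 0.05 and 0 in DESeq2.

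Males and females were compared within each region to ask which of the 60 differ between horned and hornless heads. The rule averaged over both sexes, so a transcript high in LatP of 1 sex could enter the list through that sex. The counts are thus shaped by the choice, and nothing is read from their difference from the shares of all transcripts. In LatP, 3 of the 60 were called higher in males and 1 higher in females, against 1.04% and 0.358% of transcripts tested. Leaving out female 2, 3 or 5 or male 4 or 6 cut the 3 to 1, and leaving out male 4 or 6 cut the 1 to 0.

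The insulin-like receptor transcript XM_023058767.1 had 10.4, 14.4 and 26.8 CPM in LatP of males (lowest, median and highest of 6), against 4.20, 2.99, 4.45, 4.13 and 3.65 CPM in LatP of females 1 to 5. Each male was above each female, with a log2FC of 2.10 (SE 0.264, adjusted p = 0.0105 in edgeR), and it was called in all 15 alternatives. Summed over the 4 transcripts of the gene, males had 10.4 to 26.8 CPM and females 2.99 to 5.28 CPM. XM_023058767.1 made up 84.9% of the CPM of its gene, so this sum is largely the same measurement.

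CaMKII is a calcium-dependent kinase best known from synapses and muscle. Its transcript XM_023057104.1 had 12.5, 48.4 and 88.6 CPM in LatP of males and 5.95, 5.98, 3.92, 13.4 and 9.56 CPM in LatP of females, with a log2FC of 2.66 (SE 0.479, adjusted p = 0.03), a call lost in 6 of 15 alternatives. The lowest male overlapped the highest female, while the sum over the 4 transcripts of the CaMKII gene, 50.3 to 204 CPM in males and 10.5 to 31.7 CPM in females, did not overlap. In females the transcript had medians of 5.98 and 13.7 CPM in LatP and MP, against 5.26 and 4.61 CPM in LatA and MA. The female gene sum had medians of 15.42 and 28.06 CPM, against 15.75 and 14.07 CPM. Its level in LatP of females was thus close to the anterior level.

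XM_023050743.1, which has no name, had 290.6, 689.5 and 2088 CPM in LatP of males, against 135.6, 75.4, 23.4, 84.6 and 43.7 CPM in LatP of females (log2FC 3.69, SE 0.675, adjusted p = 0.0312). XM_023048059.1, also without a name, was lower in males, at 51.2, 62.4 and 104.1 CPM, against 186.6, 203.1, 169.7, 161.5 and 127.0 CPM in females (log2FC −1.26, SE 0.201, adjusted p = 0.0198). Both separated the sexes without overlap, although the call of XM_023050743.1 was lost in 7 of 15 alternatives and that of XM_023048059.1 in 2. In LatP, muscle transcripts summed to a median of 46.0 CPM in males and 203.4 CPM in females and photoreceptor transcripts to 24.6 and 35.1 CPM, and the fat body and haemocyte transcript had 7.59 and 17.3 CPM. Their part in these differences was not tested.

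**Figure D5:**
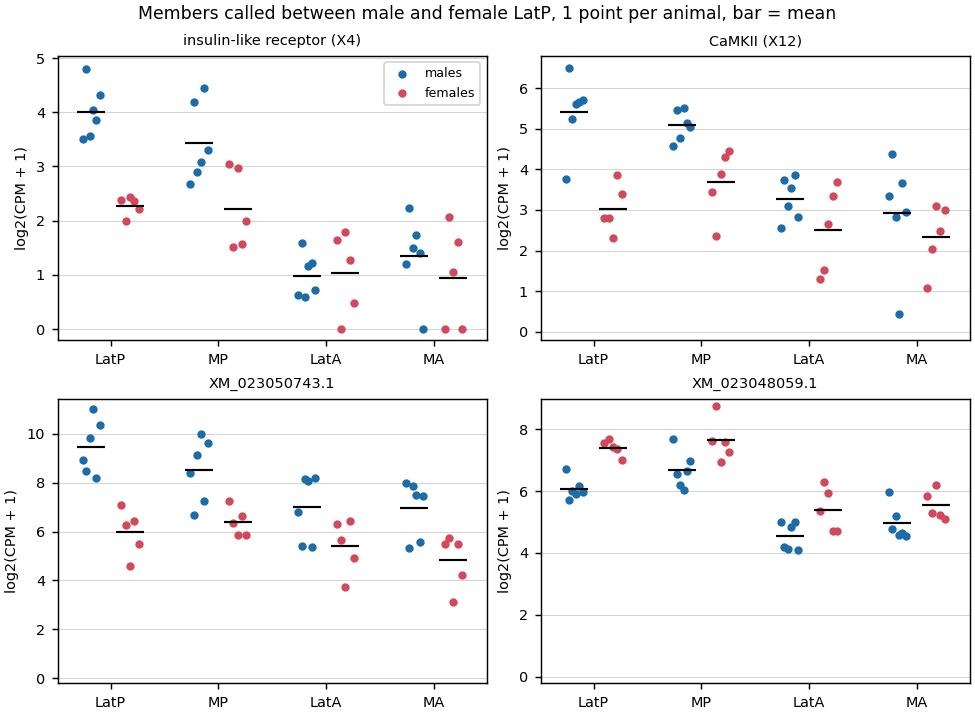
Levels of the 4 transcripts called between male and female LatP as log2(CPM + 1) in LatP, MP, LatA and MA, with 1 point for each animal (males left of females) and a bar at the mean. In LatP the points of the sexes are apart except for the lowest male and the highest female of CaMKII.

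In MP, LatA and MA, 0 of the 60 were called between the sexes in edgeR, of 60, 53 and 50 tested, with 17, 6 and 10 at an unadjusted p under 0.05. These unadjusted counts cannot be judged without the share of all transcripts. Of all transcripts 0.0395% and 0.0553% were called higher in males and in females in MP, and 0 in LatA and MA. DESeq2 called 4 of the 60 higher in males and 1 higher in females in MP, 0 in LatA, and 1 higher in males in MA.

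The change from the anterior to the posterior head was then compared between the sexes. The rule averaged over all animals, so a transcript raised in the posterior head of 1 sex could enter the list through that sex. The counts are thus not independent of the choice, and nothing is read from their difference from the shares of all transcripts. In 3 of the 60 the change was larger in males and in 0 it was larger in females, against 2.37% and 0.487% of transcripts tested, with 15 at an unadjusted p under 0.05 and 5 and 0 called by DESeq2. For XM_023050422.1, the venom serine protease, the male minus female log2FC was 1.05 (SE 0.148, adjusted p = 6.3e-05). It had a median of 108.5 CPM in LatP and 99.6 CPM in MP of males, against 23.3 and 20.3 CPM in LatA and MA, and in females 65.3 and 94.8 CPM, against 26.6 and 23.7 CPM. Females were thus above their anterior level by less than males.

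XM_023058523.1, without a name, differed by 1.58 (SE 0.342, adjusted p = 0.00651). It had medians of 271.9 and 145.2 CPM in LatP and MP of males, against 32.5 and 19.0 CPM in LatA and MA. In females the medians were 30.9 and 78.4 CPM, against 23.0 and 15.2 CPM. The female means were 60.3 and 131.5 CPM in LatP and MP, against 65.7 and 64.3 CPM in LatA and MA. XM_023054912.1 differed by 1.298 (SE 0.342, adjusted p = 0.0313), and 87.8% of its variance lay between animals. With no replicate block 0 of the 60 were called. Leaving out female 2, whose left LatA library correlated only weakly with any region, raised the calls larger in males to 5, and so did leaving out male 1. Leaving out female 5 cut them to 1, with XM_023058523.1 at an adjusted p of 0.0585 and XM_023054912.1 at 0.164. The call of XM_023058523.1 was also lost without female 3, and that of XM_023054912.1 without female 1, 3 or 4 or male 1, 4 or 6.

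The last comparison measured lists chosen in 1 sex in the other, which did not take part in the choice. The same rule applied to males alone and to females alone kept 33 and 28 of the 60, and the lists of 60 shared 6, or 10% of each. All 6 are among the 60, namely XM_023051322.1, XM_023044165.1, XM_023046951.1, XR_002707108.1, XM_023063000.1 and XM_023052425.1. Of the transcripts chosen in males, 12 of 60 tested were higher in LatP than in LatA of females and 0 were lower, against 2.08% and 1.54% of all transcripts, and 9 of the 12 are among the 60 described here. Between MP and MA of females 2 of 54 were higher in MP and 0 lower, against 0.254% and 0.339%, and both are among the 60. With the animal as replicate block the counts were 30 between LatP and LatA, with 1 lower, and 8 between MP and MA. The shares of all transcripts in that fit are not given here.

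Of the transcripts chosen in females, 13 of 55 were higher in LatP than in LatA of males, against 3.26% of all, and 11 of 52 were higher in MP than in MA, against 1.32%. None of either was called lower, by edgeR or by DESeq2, where 2.02% and 1.53% of all transcripts were. Their median log2FC was 1.44 between LatP and LatA and 2.03 between MP and MA, against −0.01 and 0.05 over all transcripts. A muscle transcript, XM_023057670.1, is among those higher in LatP. Of those called, 10 of the 13 and 10 of the 11 are among the 60 described here. The 60 were chosen on values of both sexes. Their overlap with the calls from either list thus follows from the rule and is no support for the 60. For the same reason, the levels of single members in these comparisons are given as a description, with no test. For the *araucan*/*caupolican* transcript XM_023044165.1, in both lists, the log2FC was 2.26 for LatP over LatA and 2.68 for MP over MA in females, and 1.93 and 2.37 in males. For *hairy* (XM_023054958.1) and *sister of odd and bowl* (XM_023046386.1), in the list chosen in females, it was 1.24 and 2.08 for LatP over LatA and 1.81 and 4.28 for MP over MA in males.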

How the data were processed

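RNA of 66 dissected head pieces was sequenced as poly(A) stranded libraries. Per the labels and methods, reads were trimmed (Trimmomatic 0.32), aligned to transcript models (Bowtie2 2.3.2) and quantified with RSEM 1.3.0, and the authors deposited the resulting expected counts of 23725 transcripts without normalization, of which 74.3% are whole numbers. RSEM divides reads between isoforms.

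Here the expected counts were rounded and tested with edgeR 4.0.16 in R 4.3.3 (TMM, quasi-likelihood F-test, Benjamini-Hochberg adjustment over all transcripts above 1 CPM in at least 2 libraries, called at an adjusted p under 0.05). Adjusted p-values are from edgeR unless DESeq2 1.42.0 is named. Regions were compared within a sex with sides as separate replicates, so that p-values also measure the spread between sides of 1 animal. Sexes were compared with sides added, and sex differences of a change with the animal as block. A negative log2FC means lower in the group named first. CPM uses TMM factors, and the pseudocount was 1. Pairing comes from the animal in the labels. Deviations of LatP and MP pieces of 1 animal correlated at a mean of 0.322 in males and 0.52 in females, against −0.0638 and −0.129 between animals. The fits were tested on simulated data.

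The 60 members and all lists were chosen with earlier results of these data known. Values are given for the first 12 members by score, the first 2 of each product class, and members called in both sexes between LatP and MP, between the sexes or in the sex difference of the posterior change. Other transcripts were chosen after their values were seen. Names come from the tables of the study and genes from RefSeq (IU_Otau_3.0). Sequences and promoter motifs were not used here. Libraries have no molecular identifiers, so floors cover counting error only.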

Additional observations from a re-analysis of the deposited data

Results flagged for a closer look

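Of 48 groups of 5 or 6 animals or libraries examined for a value far from the rest, 3 held such a value, and chance flags about 1 group in 20. Male 1 stood apart from the other males in LatP for XM_023048059.1, at 104.1 CPM, and for the chymotrypsin-like XM_023057345.1, at 31.03 CPM. Female 1 stood apart from the other females in LatP for XM_023057345.1, at 41.17 CPM.

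The change from the anterior to the posterior head differed between the sexes for 3 of the 60. The male minus female log2FC was 1.05 for XM_023050422.1, 1.58 for XM_023058523.1 and 1.298 for XM_023054912.1. The choice averaged over both sexes, so these differences are not independent of it. The LatP to MP change of XM_023057345.1 differed by −8.19, a value that depends on an MP level at or near 0 in females and is no measure of size. With that level in females, the transcript could enter the list only through males, so the difference is not independent of the choice.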

How the results depend on the processing

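With the animal as replicate block, LatP against MP gave 2 of the 60 higher in LatP and 12 higher in MP in males, and 16 higher in MP in females. The list chosen in males then gave 30 higher and 1 lower in LatP than in LatA of females, and 8 higher in MP than in MA. With sides added and the replicate block these counts were 1, 11 and 11, and 7 and 8. Taking sides as separate replicates gave 8 higher in males and 9 higher in females in LatP, 6 for the posterior change larger in males, and 1 and 4 for the LatP to MP change larger in males and in females. Without the block, 0 of the 60 were called for either sex difference of a change, and 0 for the LatP to MP change when low counts were kept. DESeq2 gave 5 higher in MP of females, 1 higher in LatA of males, 5 and 2 between male and female LatP, 4 and 1 in MP and 1 in MA, 5 for the posterior change, 3 and 4 for the LatP to MP change, and 9 and 24 between MP and MA for the lists chosen in males and in females. At the threshold of the study (adjusted p under 0.001 and log2FC over 2) each of these counts was 0, except that between LatP and LatA 10 were higher in LatP for the list chosen in males and 1 for the list chosen in females. The shares of all transcripts called under these settings are not given here, so nothing is read from the size of the counts. The cause of these differences was not tested.

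Leaving out 1 animal at a time gave 0 to 1 higher in LatP and 1 to 3 higher in MP of males (1 without male 1), and 1 to 4 and 1 to 3 in females (1 without female 2 or 4 in either direction, 1 higher in MP without female 5 and 3 higher in LatP without female 1). Between male and female LatP it gave 1 to 3 higher in males (1 without female 2, 3 or 5 or male 4 or 6) and 0 to 1 higher in females (0 without male 4 or 6), and 0 to 1 higher in males in MP. The posterior change was larger in males for 1 to 5 (1 without female 5), and the LatP to MP change for 0 to 1 in males and 0 to 2 in females. The list chosen in males gave 0 to 1 between MP and MA, and the list chosen in females 5 to 10 (5 without male 2 or 3, 7 without male 6).

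Of the 60, 33 were kept with a pseudocount of 0.1 and 38 with 5, 33 from males alone, 28 from females alone, 39 with medians over animals, 50 to 57 without 1 animal, and 34 whichever animal was left out. No call changed direction. The insulin-like receptor transcript (XM_023058767.1) was called in LatP under all 15 alternatives and XM_023045901.1 in males under all 11.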
